A study of Capra hircus with 6 samples.

Results

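The genes described here encode the receptors through which growth hormone, insulin, leptin and adiponectin act on a cell, together with the insulin receptor substrates that pass the insulin signal on. They were chosen by name, as GHR, INSR, IRS1, IRS2, LEPR, ADIPOR1 and ADIPOR2. Of these 7 genes, 6 were found by NCBI GeneID among the 17504 genes of the deposited files, and IRS2 was not analysed here. Expression came from RNA sequencing of whole ovaries of 6 goats (Capra hircus) taken in the follicular phase, when follicles grow towards ovulation, with levels in FPKM (sequenced fragments per kilobase, scaled to the library's mapped fragments). The goats were 3 Jintang black goats, labelled prolific, and 3 Tibetan goats, labelled non-prolific. The sources used here give no age, parity, body condition or feeding, and name no agent or transgene.

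These receptors tie reproduction to nutrition. Growth hormone binds GHR, a cytokine receptor without enzyme activity of its own that works through the kinase JAK2 and STAT5. Insulin binds INSR, a receptor tyrosine kinase that phosphorylates IRS1 and IRS2, which recruit phosphatidylinositol 3-kinase and so activate AKT. Leptin binds LEPR, also a JAK2-coupled receptor, and signals through STAT3. Adiponectin binds ADIPOR1 and ADIPOR2, membrane proteins of the PAQR family that act through the adaptor APPL1, AMP-activated protein kinase and PPARA. In ruminants the ovary responds to all of these hormones, and insulin in particular promotes steroid production by follicle cells.

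Some libraries stood apart in content. The sum of FPKM, which does not measure depth, ran from 602255 to 682801. Ratios of the same low genes between libraries put relative depths between 0.925 and 1.028 (Tibetan 1 set to 1). That estimate searched only a narrow range around equal depth, so a larger difference could not have appeared. Absolute depth is unknown. The first principal component of the log2 values, with 45.6% of the variance, placed Jintang 2 at 66.8, Jintang 1 at 38.2, Jintang 3 at -24.8, Tibetan 3 at 9.55, Tibetan 2 at -32.5 and Tibetan 1 at -57.2. Ovarian markers were present in every library, and the 10 luteal markers summed to 6577, 24458 and 600.4 FPKM in Jintang 1, 2 and 3 and to 423, 659 and 3268 FPKM in Tibetan 1, 2 and 3. The 10 adipocyte markers summed to 131, 61.6 and 39.9 FPKM in Jintang 1, 2 and 3, against 30.03, 34.1 and 57.0 FPKM in Tibetan 1, 2 and 3. The defining fat-cell genes ADIPOQ and LEP were at or near 0 (their values are given with the ligands).

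In none of the 6 receptor genes did the breed difference pass the test against the spread between goats. Breeds were compared with limma on log2(FPKM + 1), with p-values adjusted by Benjamini-Hochberg over the 13067 genes that had at least 1 FPKM in at least 3 libraries, and a threshold of 0.05. All 6 genes passed that filter, and limma called 0 of 6 in either direction, against 0% of all genes tested. At an unadjusted p under 0.05 there were 0 of the 6 genes and 806 of all genes (6.17%). Differences below were taken as Jintang minus Tibetan in log2(FPKM + 1), with the limma standard error and 95% interval, n = 3 goats per breed. That scale understates the change of a low gene such as LEPR. With 3 goats against 3, the exact 2-sided permutation test of a single gene cannot go below 0.1. In whole ovary, fewer cells of a type and less RNA per cell cannot be told apart.

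**Figure D1:**
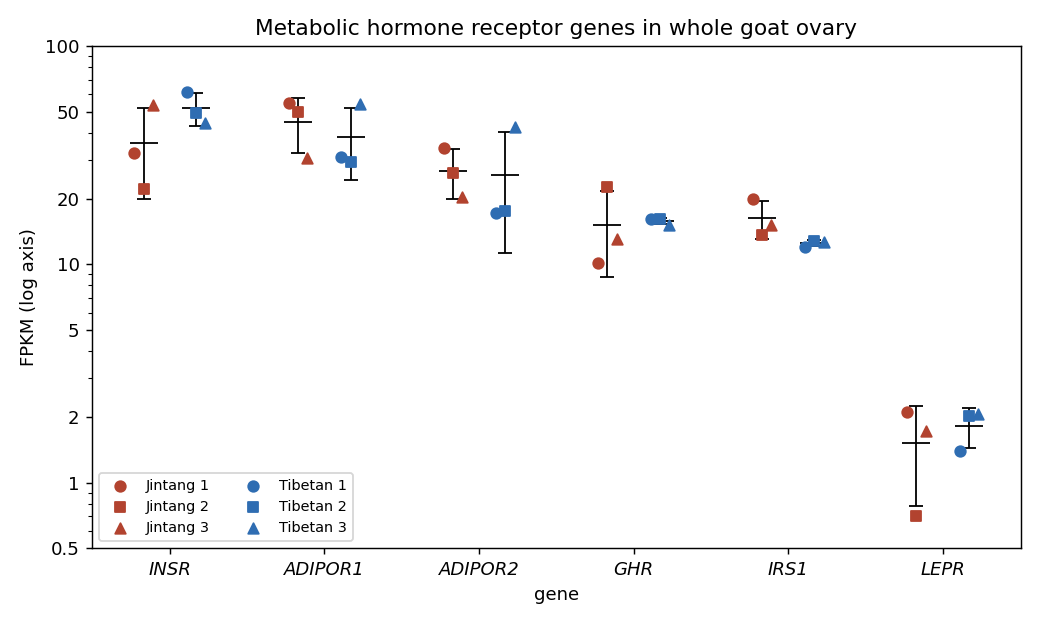
FPKM of the 6 receptor genes (log axis) in each goat, with Jintang ovaries in red left of Tibetan ovaries in blue; bars give the mean and SD of 3 goats. INSR and ADIPOR1 are highest, LEPR lies between 0.70 and 2.11 FPKM, and the breeds overlap in every gene except IRS1.

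INSR, the insulin receptor (GeneID 102168996), was the most highly expressed of the set by mean log2 level. It stood at 32.4, 22.1 and 53.8 FPKM in Jintang 1, 2 and 3, against 61.6, 49.5 and 44.4 FPKM in Tibetan 1, 2 and 3. Jintang 1 and 2 lay below every Tibetan ovary, while Jintang 3 lay between Tibetan 1 and Tibetan 2, so the breeds overlapped. The mean was 36.1 ± 16.1 FPKM in Jintang ovaries, against 51.8 ± 8.81 FPKM in Tibetan ovaries (SD, n = 3 each). The log2 difference of -0.59 (SE 0.35, interval -1.40 to 0.22) did not pass (limma adjusted p = 0.743, exact permutation p = 0.3). It was -0.91 without Jintang 3 and -0.29 without Jintang 2, and it did not pass with any library left out. The files give 1 transcript model for INSR, so the receptor's splice forms with and without the alternative exon are not resolved.

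IRS1, insulin receptor substrate 1 (GeneID 102184858), docks phosphatidylinositol 3-kinase to the activated insulin and IGF1 receptors. It was the only gene of the 6 whose breeds did not overlap. Its level was 19.8, 13.7 and 15.2 FPKM in Jintang 1, 2 and 3, against 12.04, 12.8 and 12.6 FPKM in Tibetan 1, 2 and 3. Every Jintang ovary lay above every Tibetan ovary, but Jintang 2 exceeded Tibetan 2 only slightly. The means were 16.2 ± 3.19 and 12.5 ± 0.409 FPKM in Jintang and Tibetan ovaries (SD, n = 3 each). The log2 difference was 0.34 (SE 0.25, interval -0.25 to 0.92), at a limma adjusted p of 0.772 and an exact permutation p of 0.1, the smallest possible. Of all genes tested, 3.20% had every Jintang ovary above every Tibetan ovary and 9.90% had breeds that did not overlap in either direction, beside 1 of the 6 receptor genes. Without Jintang 1 the IRS1 difference was 0.19. Jintang 1 also had the highest summed level of the fibroblast (8), macrophage (11), endothelial (11), adipocyte (10) and liver (4) markers. The other cell-type lists were highest in other libraries. The fibroblast sum was 11226, 6035 and 3671 FPKM in Jintang 1, 2 and 3, against 3724, 3894 and 2193 FPKM in Tibetan 1, 2 and 3. The macrophage sum ran from 204 to 1802 FPKM in Jintang and from 111 to 329 FPKM in Tibetan ovaries. The endothelial sum ran from 236 to 455 FPKM in Jintang and from 206 to 329 FPKM in Tibetan ovaries. The liver markers, of which 2 passed the filter, summed to 6825, 3581 and 255 FPKM in Jintang 1, 2 and 3. In Tibetan 1, 2 and 3 they summed to 141, 316 and 157 FPKM. No marker of these lists was at 0 in all libraries, and the part of any of these cells in the IRS1 level was not tested.

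GHR, the growth hormone receptor (GeneID 100860790), is transcribed in the follicles and corpora lutea of ruminants. The files sum it over 4 transcript models. It was at 10.1, 22.5 and 13.0 FPKM in Jintang 1, 2 and 3, against 16.1, 16.1 and 15.2 FPKM in Tibetan 1, 2 and 3. The Tibetan values fell between the Jintang values, with Jintang 2 above and Jintang 1 and 3 below all of them. Means were close, at 15.2 ± 6.46 FPKM in Jintang ovaries, against 15.8 ± 0.560 FPKM in Tibetan ovaries (SD, n = 3 each; log2 difference -0.12, SE 0.32, interval -0.86 to 0.61, limma adjusted p = 0.928, exact permutation p = 0.7). The sign turned without Jintang 1 (0.11). The highest GHR value belonged to the library with the highest luteal sum, Jintang 2. The lowest belonged to Jintang 1, which had the next highest luteal sum. Whether luteal cells contribute to GHR was not tested.

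The Tibetan ovaries differed little from each other in GHR and IRS1. On the log2 scale the SD of GHR was 0.55 in Jintang and 0.05 in Tibetan ovaries, and that of IRS1 was 0.26 in Jintang and 0.04 in Tibetan ovaries. Only 1.32% of genes tested had a smaller SD than GHR among the Tibetan ovaries, and 0.949% a smaller SD than IRS1. The median SD of all genes tested was 0.40 in Jintang and 0.38 in Tibetan ovaries, and 54.5% of genes had the wider spread in Jintang. Of the 6 receptor genes 4 did, the exceptions being ADIPOR1 and ADIPOR2. The SD of ADIPOR1 was 0.44 in Jintang and 0.47 in Tibetan ovaries, and that of ADIPOR2 was 0.36 in Jintang and 0.72 in Tibetan ovaries. Among the Tibetan ovaries ADIPOR2 stood at percentile 85.2 of SD over all genes tested, so the evenness did not hold for the whole set. With 3 goats a breed the difference in spread was not tested.

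LEPR, the leptin receptor (GeneID 102180987), was the lowest of the set. Its level was 2.11, 0.70 and 1.72 FPKM in Jintang 1, 2 and 3, against 1.39, 2.01 and 2.07 FPKM in Tibetan 1, 2 and 3. Jintang 2 was the only library under 1 FPKM and Jintang 1 the highest, so the Jintang values enclosed the Tibetan ones. The means were 1.51 ± 0.728 and 1.82 ± 0.376 FPKM in Jintang and Tibetan ovaries (SD, n = 3 each), with a log2 difference of -0.21 (SE 0.36, interval -1.02 to 0.61, limma adjusted p = 0.898, exact permutation p = 0.7). Without Jintang 2 it was 0.05. The files sum LEPR over 2 transcript models, so the long form, which carries the STAT3 signal, cannot be told apart from the short forms.

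The adiponectin receptors ADIPOR1 (GeneID 100861392) and ADIPOR2 (GeneID 102173644) split the goats in another way than by breed. ADIPOR1 was at 54.6, 50.02 and 30.6 FPKM in Jintang 1, 2 and 3, against 30.9, 29.6 and 54.1 FPKM in Tibetan 1, 2 and 3. Jintang 1, Jintang 2 and Tibetan 3 lay within 50.02 to 54.6 FPKM and the other libraries within 29.6 to 30.9 FPKM, with no value between. ADIPOR2 was at 34.1, 26.2 and 20.2 FPKM in Jintang 1, 2 and 3, against 17.2, 17.5 and 42.4 FPKM in Tibetan 1, 2 and 3. The same libraries were again the highest, now led by Tibetan 3. By breed, ADIPOR1 averaged 45.1 ± 12.8 FPKM in Jintang ovaries, against 38.2 ± 13.8 FPKM in Tibetan ovaries (SD, n = 3 each; log2 difference 0.25, SE 0.35, interval -0.55 to 1.04, limma adjusted p = 0.872, exact permutation p = 0.6). ADIPOR2 averaged 26.8 ± 6.94 FPKM in Jintang ovaries, against 25.7 ± 14.5 FPKM in Tibetan ovaries (log2 difference 0.15, SE 0.40, interval -0.76 to 1.07, limma adjusted p = 0.928, exact permutation p = 0.8). The ADIPOR2 difference was -0.03 without Jintang 1, -0.06 without Tibetan 1 and -0.05 without Tibetan 2. The ADIPOR1 difference was 0.50 without Jintang 3, 0.52 without Tibetan 3 and between 0.09 and 0.15 without any other library.

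The libraries with high ADIPOR1 and ADIPOR2 were those with the highest scores on the first principal component and the highest STAR. STAR, which moves cholesterol into mitochondria, was at 139, 3130.4 and 30.8 FPKM in Jintang 1, 2 and 3, against 8.91, 28.6 and 139 FPKM in Tibetan 1, 2 and 3. The luteal sums and the adipocyte sums given above were also highest in Jintang 1, Jintang 2 and Tibetan 3. The fibroblast sums were highest in Jintang 1, Jintang 2 and Tibetan 2. Of the 10 luteal markers, LHCGR, PTGFR and VEGFA had another set of 3 highest libraries. The share of all genes tested that were highest in Jintang 1, Jintang 2 and Tibetan 3 is not given here. Whether this order is particular to any cell type therefore cannot be told. PTGFR, the receptor for the luteolytic prostaglandin, was lowest in Tibetan 3, at 9.23 FPKM, and LHCGR was at 5.71 FPKM in Jintang 1, below all libraries but Tibetan 1. TIMP1, a protease inhibitor made by many cell types, gave 5304 of the 6577 FPKM in Jintang 1. Without it, a sum added after the data were seen, the other 9 markers summed to 1273, 15243 and 293.5 FPKM in Jintang 1, 2 and 3, against 170.1, 287.5 and 1970.3 FPKM in Tibetan 1, 2 and 3. No luteal marker was at 0 in all libraries. CYP17A1 and CYP19A1, steroidogenic genes outside the luteal list, did not share this order. The theca gene CYP17A1 (LOC102182663), needed for androgen synthesis, had 1.99, 4.24 and 103 FPKM in Jintang ovaries, against 16.3, 152 and 719 FPKM in Tibetan ovaries, lowest in Jintang 1 and 2. CYP19A1, which encodes aromatase, was lowest in Jintang 1, at 0.27 FPKM, and highest in Tibetan 3, at 15.6 FPKM. INSR ran the other way, with its lowest values in these libraries. The part of luteal cells in these levels was not tested.

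**Figure D2:**
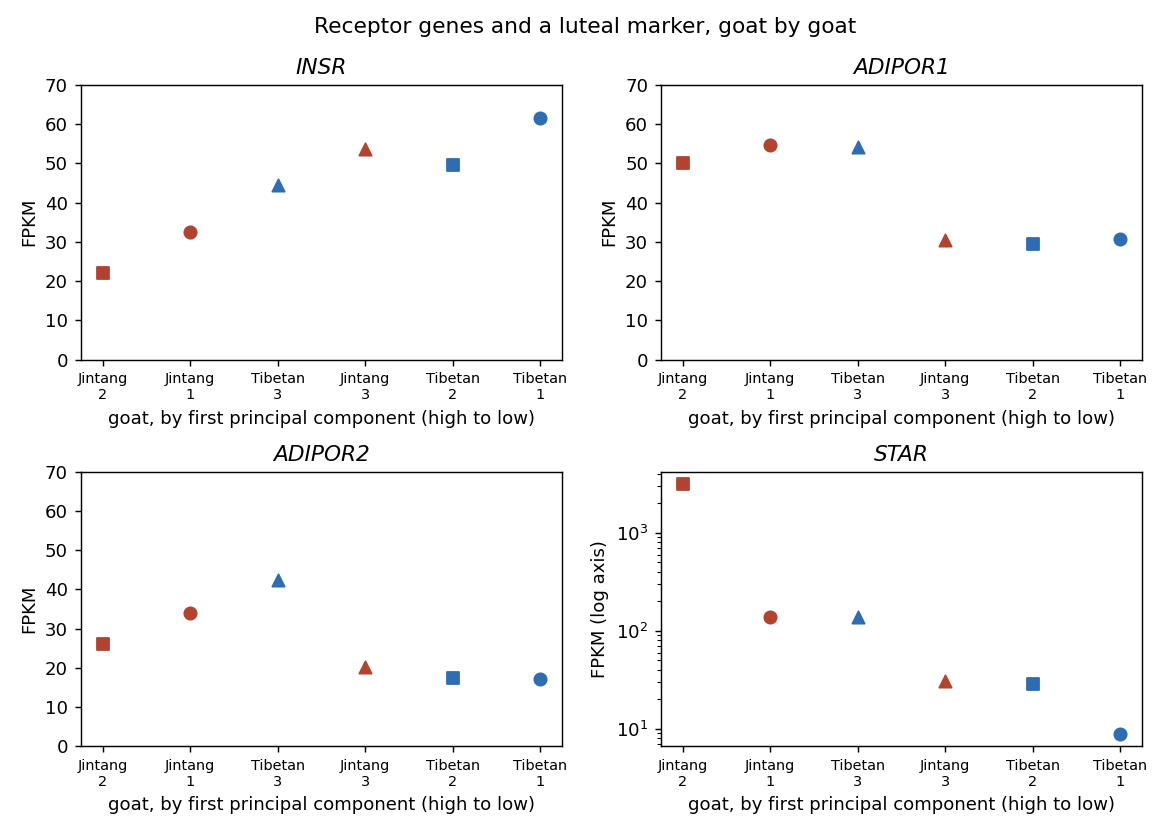
FPKM of INSR, ADIPOR1, ADIPOR2 and the luteal marker STAR (log axis for STAR only) in each goat, ordered along the x axis by first principal component score; red points are Jintang and blue points Tibetan ovaries. Jintang 2, Jintang 1 and Tibetan 3 combine ADIPOR1 of at least 50.02 FPKM with INSR of at most 44.4 FPKM.

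**Figure D3:**
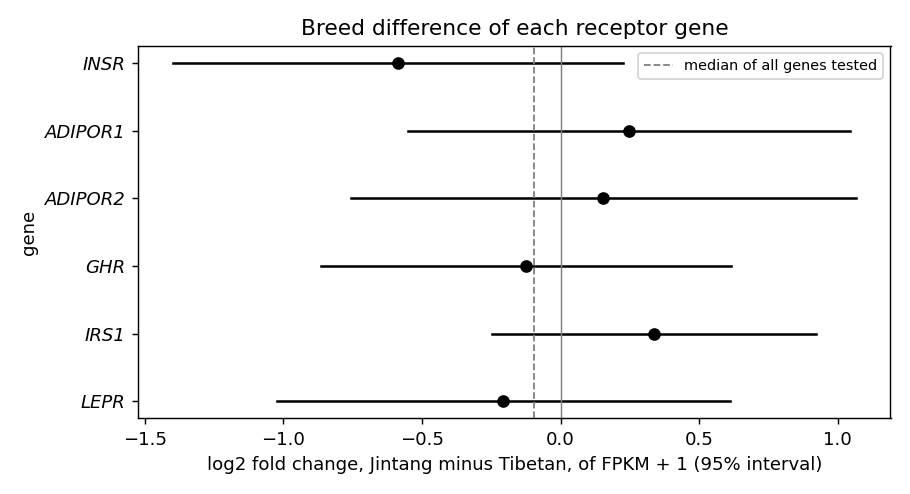
log2 fold change of FPKM + 1, Jintang minus Tibetan, for each receptor gene (points) with its 95% limma interval (lines); the dashed line is the median of all 13067 genes tested, -0.10. Every interval includes 0.

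Since FPKM is per length, levels of different genes in a library can be set side by side. By mean log2 level over the 6 libraries the order was INSR, ADIPOR1, ADIPOR2, GHR, IRS1 and LEPR. Among all genes tested INSR stood at percentile 84.0 of mean level, ADIPOR1 at 83.2, ADIPOR2 at 72.1, GHR at 57.3, IRS1 at 55.5 and LEPR at 6.45. Neighbours were compared within libraries by an exact 2-sided sign-flip permutation test, whose smallest p with 6 libraries is 0.0312, adjusted over 5 pairs. The order was set on these values, so it fixes the sign of each mean difference, and none of the 5 pairs passed 0.05 after adjustment. Because of that smallest p, a single pair could not pass on its own, however far apart its levels. Not passing therefore does not show that levels were alike. ADIPOR1 exceeded ADIPOR2 in 6 of 6 libraries, by 0.67 ± 0.20 in log2 level (SD, n = 6; exact p = 0.0312, adjusted p = 0.0521). ADIPOR2 exceeded GHR in 6 of 6 libraries, by 0.68 ± 0.69, and IRS1 exceeded LEPR in 6 of 6, by 2.54 ± 0.36, at the same exact p-values. INSR and ADIPOR1 did not differ beyond their spread (difference 0.06 ± 0.90, INSR higher in 3 of 6 libraries, exact p = 0.938 before and after adjustment). GHR and IRS1 did not either (0.09 ± 0.56, GHR higher in 4 of 6, exact p = 0.688, adjusted p = 0.859).

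A ratio of FPKM values within a library does not depend on how the library was scaled, and 3 ratios were compared between breeds. The log2 ratios tested used FPKM + 1 and so depend on it slightly. Without a pseudocount the breed differences were 0.09 for ADIPOR1 to ADIPOR2, -0.70 for INSR to IGF1R and -0.47 for INSR to GHR. ADIPOR1 was 1.60, 1.91 and 1.51 times ADIPOR2 in Jintang 1, 2 and 3, against 1.79, 1.69 and 1.27 times in Tibetan 1, 2 and 3, in FPKM. The breed difference in the log2 ratio was 0.09 (exact permutation p = 0.7, adjusted p = 0.9) and turned to -0.05 without Tibetan 3 and to -0.0048 without Jintang 2. INSR against IGF1R, the receptor for insulin-like growth factors, gave FPKM ratios of 0.985, 1.59 and 2.51 in Jintang 1, 2 and 3 and of 2.74, 3.16 and 1.94 in Tibetan 1, 2 and 3. IGF1R itself was at 32.9, 13.9 and 21.4 FPKM in Jintang ovaries, against 22.5, 15.7 and 22.9 FPKM in Tibetan ovaries. The log2 ratio of INSR to IGF1R averaged 0.63 ± 0.65 in Jintang and 1.31 ± 0.35 in Tibetan ovaries (SD, n = 3 each), a difference of -0.68 (exact permutation p = 0.2, adjusted p = 0.6). The sign of this difference was the same with each library left out, between -1.01 and -0.35. The log2 ratio of INSR to GHR averaged 1.18 ± 1.06 in Jintang and 1.64 ± 0.20 in Tibetan ovaries (difference -0.46, exact permutation p = 0.9, adjusted p = 0.9), and the difference was 0.14 without Jintang 2, where the ratio was lowest.

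Pearson and Spearman correlations over the 6 libraries were computed for the 15 pairs of receptor genes. ADIPOR1 fell into separate clusters of 3 libraries, so no coefficient is given for its 5 pairs, and its relation to ADIPOR2 cannot be tested within clusters of that size. Of the other pairs none passed after adjustment over 15. The strongest was GHR with LEPR (r = -0.79, permutation p = 0.0764, adjusted p = 0.526; rho = -0.83, permutation p = 0.0583, adjusted p = 0.681). Without the 2 libraries farthest from the median of GHR it was r = -0.03, so it rests on those libraries.

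RNA of the ligands of these receptors was low or listed at 0. LEP, leptin, was listed at 0 in 5 of the 6 libraries and at 0.10 FPKM in Jintang 2. ADIPOQ, adiponectin, was at 0.25, 0.43 and 0.16 FPKM in Jintang 1, 2 and 3, against 0.18, 0.14 and 0.15 FPKM in Tibetan 1, 2 and 3. GH1, growth hormone, was at 0.46, 0 and 2.41 FPKM in Jintang 1, 2 and 3, against 0, 2.61 and 0.23 FPKM in Tibetan 1, 2 and 3, so only Jintang 3 and Tibetan 2 exceeded 1 FPKM. None of the 3 reached the filter, and none was tested. INS, insulin, was not analysed here.

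Genes that act with the receptors were taken as lists for each hormone. Of the 13 growth hormone signalling entries 9 were in the files and tested, and limma called 0 higher and 0 lower in Jintang ovaries, with 1 of 9 at an unadjusted p under 0.05, beside 6.17% of all genes tested. Their median log2 difference was 0.01, with 5 positive and 4 negative, beside a median of -0.10 over all genes tested. SOCS3, a feedback inhibitor of JAK2 signalling shared by growth hormone and leptin, was at 65.2, 33.6 and 16.5 FPKM in Jintang 1, 2 and 3, against 11.5, 6.54 and 24.5 FPKM in Tibetan 1, 2 and 3 (log2 difference 1.35, SE 0.58, limma adjusted p = 0.743). Jintang 3 lay below Tibetan 3, and the difference was 0.88 without Jintang 1. JAK2, the kinase bound to GHR and LEPR, was lower in every Jintang ovary, at 4.39, 5.05 and 5.25 FPKM in Jintang 1, 2 and 3, against 7.27, 7.29 and 6.18 FPKM in Tibetan 1, 2 and 3 (log2 difference -0.42, SE 0.26, limma adjusted p = 0.743). Of all genes tested, 6.70% had every Jintang ovary below every Tibetan ovary. IGF1, a target of growth hormone in liver, was at 10.1, 10.6 and 17.6 FPKM in Jintang ovaries, against 30.7, 17.5 and 14.1 FPKM in Tibetan ovaries, overlapping (log2 difference -0.63, limma adjusted p = 0.743, and -0.32 without Tibetan 1). PRLR, the prolactin receptor and a relative of GHR, reached 53.4 FPKM in Jintang 1, while no other library exceeded 2.03 FPKM, and its log2 difference of 1.83 (limma adjusted p = 0.758) became 0.21 without Jintang 1.

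Insulin signalling had 45 of its 47 entries in the files and 41 tested. Limma called 0 higher and 0 lower, and 2 of 41 had an unadjusted p under 0.05, beside 6.17% of all genes tested. The median log2 difference was -0.03, with 18 positive and 23 negative. ENPP1, a membrane enzyme that inhibits the insulin receptor, showed the largest difference of the list, at 431, 107 and 24.6 FPKM in Jintang 1, 2 and 3, against 14.1, 18.6 and 14.9 FPKM in Tibetan 1, 2 and 3. Every Jintang ovary lay above every Tibetan ovary, and Jintang 1 far above the rest (log2 difference 2.66, SE 0.86, limma adjusted p = 0.743, and 1.65 without Jintang 1). PCK2, mitochondrial phosphoenolpyruvate carboxykinase, was at 7.69, 12.1 and 7.43 FPKM in Jintang ovaries, against 2.97, 5.51 and 3.13 FPKM in Tibetan ovaries, also without overlap (log2 difference 1.06, SE 0.33, limma adjusted p = 0.743). FOXO4, a transcription factor that insulin signalling keeps out of the nucleus, was at 19.0, 7.62 and 21.1 FPKM in Jintang ovaries, against 31.0, 25.01 and 25.2 FPKM in Tibetan ovaries, each Jintang value below each Tibetan value (log2 difference -0.84, SE 0.38, limma adjusted p = 0.743, and -0.41 without Jintang 2). PTPRF, a receptor phosphatase, overlapped (log2 difference -0.85, limma adjusted p = 0.743). The PTPRF difference was -0.41 without Tibetan 3 and -1.29 without Tibetan 2. Without overlap were 2 of the 41 genes in each direction, beside 3.20% of all genes tested higher and 6.70% lower. The fourth was the exchange factor SOS1, named after its values were seen (log2 difference -0.49, limma adjusted p = 0.743).

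Some components just below the receptors, picked after the values were seen, are given for their place in the pathway. AKT1 was at 44.5, 55.9 and 42.7 FPKM in Jintang 1, 2 and 3, against 51.4, 39.7 and 44.5 FPKM in Tibetan 1, 2 and 3, and AKT2 between 56.8 and 64.4 FPKM in Jintang and between 36.6 and 69.3 FPKM in Tibetan ovaries. GRB2, an adaptor, ranged from 37.3 to 41.2 FPKM in Jintang and from 34.5 to 43.8 FPKM in Tibetan ovaries. These genes overlapped, with log2 differences of 0.07 for AKT1 (limma adjusted p = 0.949), 0.13 for AKT2 (adjusted p = 0.921) and -0.0031 for GRB2 (adjusted p = 0.998). PIK3R1, the regulatory subunit that binds IRS1, varied more, at 24.5, 21.8 and 58.2 FPKM in Jintang ovaries, against 52.1, 32.5 and 43.8 FPKM in Tibetan ovaries, with Jintang 1 and 2 lowest (log2 difference -0.40, limma adjusted p = 0.812). PIK3R2, its close relative, stood at 163.5 FPKM in Jintang 1 and between 26.6 and 41.6 FPKM in the other libraries (log2 difference 0.62, limma adjusted p = 0.809). GAB1, a docking protein, had a log2 difference of -0.63 (limma adjusted p = 0.758) and overlapped. SLC2A4, the insulin-regulated glucose transporter of muscle and fat, was between 1.04 and 3.05 FPKM in Jintang and between 2.24 and 2.48 FPKM in Tibetan ovaries.

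**Figure D4:**
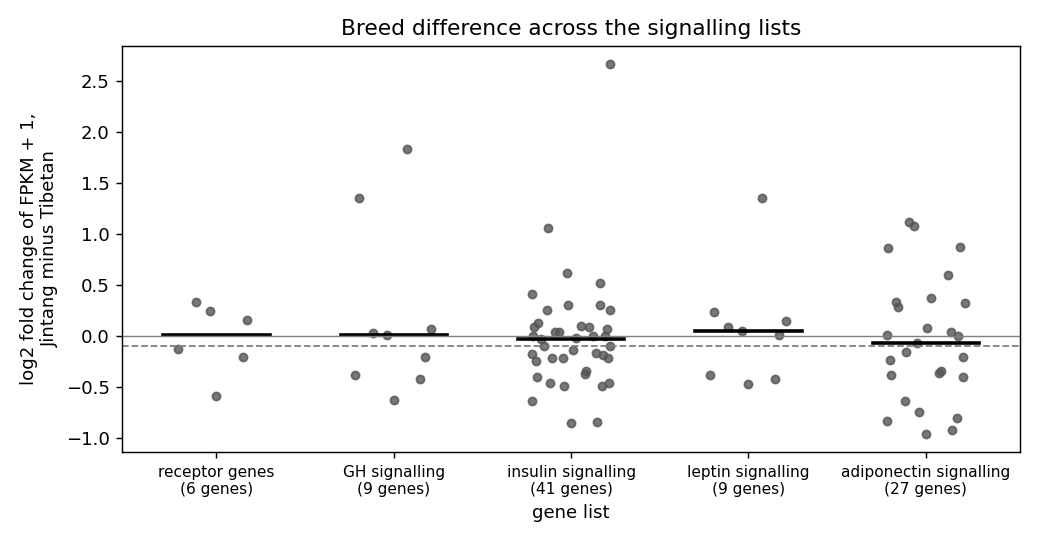
log2 fold change of FPKM + 1, Jintang minus Tibetan, for each tested gene (points) of the receptor set and the 4 signalling lists, with list medians as thick lines and the median of all genes tested (-0.10) as a dashed line. List medians lie between -0.07 and 0.05, and the highest point is ENPP1 at 2.66.

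Leptin signalling had 9 of 10 entries in the files, all tested, with limma calling 0 higher and 0 lower and 1 of 9 (SOCS3) at an unadjusted p under 0.05, beside 6.17% of all genes. The median was 0.05, with 6 positive and 3 negative. LEPROTL1, a relative of the leptin receptor overlapping transcript protein, was at 42.8, 36.04 and 47.5 FPKM in Jintang 1, 2 and 3, against 51.8, 61.2 and 62.03 FPKM in Tibetan 1, 2 and 3. Every Jintang ovary lay below every Tibetan ovary (log2 difference -0.46, SE 0.25, limma adjusted p = 0.743). With JAK2, 2 of the 9 genes were lower without overlap and 0 higher, beside 6.70% and 3.20% of all genes tested. SH2B1, an adaptor that promotes JAK2 activity, overlapped (log2 difference -0.38, limma adjusted p = 0.791), and its difference was -0.20 without Jintang 1, -0.17 without Tibetan 3 and -0.64 without Tibetan 2. STAT3, named after its values were seen, was at 67.7, 94.6 and 53.4 FPKM in Jintang ovaries, against 52.3, 42.9 and 91.7 FPKM in Tibetan ovaries, highest in the libraries with high ADIPOR1.

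Adiponectin signalling and the PAQR and C1q/TNF-related families gave 30 of 30 entries in the files and 27 tested. Limma called 0 higher and 0 lower, with 3 of 27 at an unadjusted p under 0.05, beside 6.17% of all genes, and the median was -0.07, with 12 positive and 15 negative. CDH13, T-cadherin, which binds multimeric adiponectin at the cell surface, was at 14.1, 5.25 and 8.38 FPKM in Jintang 1, 2 and 3, against 2.89, 5.16 and 2.59 FPKM in Tibetan 1, 2 and 3. The breeds did not overlap, but Jintang 2 and Tibetan 2 were close (log2 difference 1.12, SE 0.40, limma adjusted p = 0.743). PRKAG2, a regulatory subunit of AMP-activated protein kinase, was at 82.9, 87.3 and 42.6 FPKM in Jintang ovaries, against 39.04, 39.5 and 31.5 FPKM in Tibetan ovaries, without overlap (log2 difference 0.87, SE 0.33, limma adjusted p = 0.743). PRKAB1, another regulatory subunit of that kinase, named after its values were seen, was lower in every Jintang ovary, at 20.5, 21.3 and 23.7 FPKM in Jintang ovaries, against 28.5, 26.4 and 28.8 FPKM in Tibetan ovaries (log2 difference -0.34, limma adjusted p = 0.758). Of the 27 genes 2 were higher and 1 lower without overlap, beside 3.20% and 6.70% of all genes tested. C1QTNF6 overlapped (log2 difference 1.08, SE 0.40, limma adjusted p = 0.743). PPARA, the fatty acid receptor that lies downstream of ADIPOR2, was at 4.09, 4.44 and 11.7 FPKM in Jintang 1, 2 and 3, against 11.9, 10.5 and 12.5 FPKM in Tibetan 1, 2 and 3, low in Jintang 1 and 2 alone (log2 difference -0.84, SE 0.39, limma adjusted p = 0.743, and -1.26 without Jintang 3). The adaptor APPL1, named after its values were seen, was between 12.9 and 19.0 FPKM in Jintang and between 16.6 and 19.7 FPKM in Tibetan ovaries.

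The genes most like each receptor in pattern were taken as the 3 with a symbol and the highest Pearson r of log2(FPKM + 1) over the 6 libraries, as a description of these libraries. ADIPOR1 fell into separate clusters of 3 libraries, so its most similar genes are named without coefficients. For INSR they were COCH (r = 0.997), NEIL1 (0.994) and ZNF532 (0.994), for ADIPOR1 BSG, COL4A2 and PKM, and for ADIPOR2 PLA2G15 (0.997), PLOD2 (0.995) and STRA6 (0.990). For GHR they were C3H1orf50 (0.992), SYNJ2BP (0.989) and POLH (0.989), for IRS1 CDKN2B (0.997), CDH11 (0.987) and CIITA (0.986), and for LEPR FAM213A (0.985), ROBO1 (0.978) and GPM6B (0.970). High coefficients are common with 6 libraries, since 736 genes reached r of at least 0.9 with INSR, 168 with IRS1, 121 with ADIPOR2, 94 with GHR and 28 with LEPR. COL4A2, a basement membrane collagen, was at 208, 215 and 67.4 FPKM in Jintang 1, 2 and 3, against 65.5, 65.7 and 207 FPKM in Tibetan 1, 2 and 3. It was picked for its likeness to ADIPOR1, so its sharing the ADIPOR1 split follows from that choice.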

How the data were processed

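Per the labels' protocols, ovarian total RNA was isolated with TRIzol, 1 library per goat, and an NEBNext kit was used for library construction. Each goat's deposited file lists, for every gene, an FPKM value calculated by the authors. Tools named in the submitters' processing notes, with no roles, are Bowtie2 2.1.0, RSEM 1.2.0 and TopHat2 2.0.10. No source used here names the genome build, and neither coordinates nor sequences are printed. Because FPKM is a share of a library, very abundant genes in a library reduce the values of all its other genes.

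Symbols came from a RefSeq gene table (assembly ARS1.2), which matched 16459 GeneIDs directly and 9 by accession; 1036 had no match. FPKM was not rescaled. The breed test was run in R 4.3.3 with limma 3.58.1 (eBayes with trend and no term besides breed), after tests on simulated data. In those data it called 3 of 50 genes with a true log2 difference of 1 and 25 of 50 with a difference of 2. All differences of the receptor genes were smaller than 1, a size at which the test misses most genes. Permutation tests used Python 3.11.15 and numpy 2.4.6. Each library is labelled as 1 goat, and no label gives a batch. The genes and lists were chosen with earlier results of these data known. Named were the 6 receptor genes, the ligands, up to 4 genes per list with the smallest p and the 3 most alike in pattern per receptor gene. The planned ratios of IRS1 to IRS2 and LEPR to LEPROT were not analysed here. Alternatives were other pseudocounts (0.1, 0.01), filters (none, 5 FPKM), median-ratio, TPM and quantile scaling, no trend, array weights, robust variances, a replicate block and leaving out each library.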

Additional observations from a re-analysis of the deposited data

How the results depend on the processing

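No receptor gene passed the limma test under any of the 17 alternatives, where adjusted p ran from 0.288 to 0.999, and no sign turned while all 6 libraries were kept. With a library left out the log2 difference ran from -0.058 to 0.57 for ADIPOR2, from -0.43 to 0.11 for GHR, from -0.38 to 0.052 for LEPR, from -0.91 to -0.29 for INSR, from 0.09 to 0.52 for ADIPOR1 and from 0.19 to 0.44 for IRS1. The breed difference in the log2 ratio ran from -0.049 to 0.18 for ADIPOR1 to ADIPOR2 and from -0.86 to 0.14 for INSR to GHR. The level of INSR minus that of ADIPOR1 ran from -0.13 to 0.30 and that of GHR minus IRS1 from -0.032 to 0.28. The cause of these turns was not tested. With 5 libraries the sign-flip test cannot go below 0.0625. LEPR is not tested with a filter of 5 FPKM.

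Over all genes, limma called 0 genes lower with each library left out and between 0 and 13 higher, 13 without Jintang 3 alone, and between 336 and 1874 had an unadjusted p under 0.05 (336 without Tibetan 1, 352 without Jintang 1, 535 without Jintang 2 and 1874 without Jintang 3). With array weights 1227 did. Median-ratio scaling moved the median log2 difference of all genes by 0.12, to 0.02, and that of GHR to -0.0043. With the replicate number as a replicate block, 0 genes were called and 581 had an unadjusted p under 0.05. Libraries with the same number did not deviate together (correlations over genes of -0.02, -0.21 and -0.47). The labels do not say that the numbers pair goats. These correlations cannot decide it, since the content of each ovary also enters them. In this balanced design a block leaves each difference as it is (-0.59 for INSR) and changes only its error. The INSR adjusted p was 0.952 under the block, and no call changed.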

Other observations

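INSRR, the orphan insulin receptor-related receptor, was at 44.8 FPKM in Jintang 2 and at 0.88 and 0.81 FPKM in Jintang 1 and 3, against 0.03, 0.73 and 0.69 FPKM in Tibetan 1, 2 and 3. It passed 1 FPKM in Jintang 2 alone and was therefore not tested. Jintang 2 was also the library with the highest STAR, at 3130.4 FPKM.

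GH1 exceeded 1 FPKM in Jintang 3 (2.41 FPKM) and Tibetan 2 (2.61 FPKM) only. These libraries also had the highest AMH, HSD17B1 and ZP4. AMH, a product of small growing follicles, was at 44.3 FPKM in Jintang 3 and at most 1.99 FPKM in Jintang 1 and 2, and at 20.7 FPKM in Tibetan 2 and at most 0.95 FPKM in Tibetan 1 and 3. HSD17B1 was at 23.8 FPKM in Jintang 3 and 22.4 FPKM in Tibetan 2, and the egg-coat gene ZP4 at 4.88 and 4.31 FPKM in these. Other granulosa markers were mixed. FSHR and AMHR2 were highest in Jintang 3 (10.7 and 7.55 FPKM) and GATM in Tibetan 2 (83.1 FPKM). NR5A2 was highest in Jintang 2 (122 FPKM) and INHBB in Tibetan 3 (85.8 FPKM). INHBA was highest in Jintang 1 (122 FPKM), FOXL2 and WT1 in Tibetan 1 (16.04 and 53.5 FPKM), and INHA and CYP19A1 in Tibetan 3 (1194 and 15.6 FPKM). Each oocyte marker analysed was highest in Jintang 3 or Tibetan 2, some of them below 1 FPKM. GDF9 was at 2.28 FPKM in Jintang 3, against 3.42 FPKM in Tibetan 2 and 2.50 FPKM in Tibetan 3. These genes were singled out after their values were seen, and no relation was tested.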
